A study of Mus musculus with 20 samples.

Results

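The circadian clock genes described here are 10 genes that form and read out the molecular clock of the liver: the activators ARNTL, CLOCK and NPAS2, the repressors PER1, PER2, PER3, CRY1 and CRY2, the nuclear receptor NR1D1 and the output factor DBP. They were chosen by symbol, ignoring case. All 10 were found once in the table of human genes from humanized livers, which lists 60607 genes, and once in the table of mouse genes from WT livers, which lists 55335 genes. Each gene was compared between livers with knockdown of HuR (HuR KD) and control livers within its own table.

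The clock is a transcriptional loop that runs in nearly every cell with a period of about a day. ARNTL pairs with CLOCK, or with the related protein NPAS2, and binds E-box sequences to switch on the PER and CRY genes, NR1D1 and DBP, and the PER and CRY proteins then return to the nucleus and block the pair. NR1D1 represses ARNTL, so that ARNTL mRNA is high when NR1D1 and DBP mRNA are low, and DBP carries the rhythm to D-box sequences of other genes, many of them genes of liver metabolism.

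HuR, encoded by ELAVL1, binds AU-rich stretches of mRNAs and is known for stabilising many of them, and the series asks how its loss acts on human and on mouse hepatocytes in a living liver. The WT mice were male C57BL/6, bought at 8 weeks of age. The humanized mice were TKNOG mice, which are severely immunodeficient and carry a viral thymidine kinase transgene under a mouse albumin promoter, so that ganciclovir (25 mg/kg at 8 to 9 weeks of age) removes the host's own hepatocytes. They then received 1000000 cryopreserved human primary hepatocytes through the spleen and were used when serum human albumin, measured 8 to 12 weeks later, was above 0.5 mg/ml. The labels gave 4 groups: "humanized HuR KD" (n = 4), "humanized LacZ" (n = 4), "WT HuR KD" (n = 6) and "WT LacZ" (n = 6). Every mouse, controls included, received 2000000000 pfu of adenovirus intravenously, carrying either an shRNA against HuR (against the human gene in humanized mice and the mouse gene in WT mice) or the LacZ control, and the liver was frozen after 7 days and a 4 h fast. Host mouse cells remained in the humanized livers, but the table used here holds human genes only. The time of day at which livers were taken, on which the level of most clock genes depends, is not given in the sources used here.

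The values are TPM, a transcript abundance corrected for gene length and library size, and a difference is the mean of log2(TPM + 1) over HuR KD livers minus that over LacZ livers. ELAVL1 was 3.46 ± 0.76 TPM (SD, n = 4) in humanized HuR KD livers and 5.67 ± 0.62 TPM (SD, n = 4) in their controls, a log2 difference of -0.59 ± 0.17 (SE, limma adjusted p = 0.214). Elavl1 was 4.91 ± 0.69 TPM (SD, n = 6) in WT HuR KD and 9.498 ± 0.789 TPM (SD, n = 6) in WT LacZ livers, a log2 difference of -0.83 ± 0.09 (SE, limma adjusted p = 0.00105). In neither set did the groups overlap. The reads on genes, recovered from the TPM as whole multiples, ranged from 2060176 to 13953731 per humanized library and from 12960373 to 44668272 per WT library except WT LacZ 2, which held 1423985. Reads on host mouse genes were not counted here, so in humanized livers sequencing depth and the share of human RNA cannot be told apart. Humanized HuR KD 4 and LacZ 2, called the deepest pair here, had the most reads on human genes and stood apart from the other 6. The mitochondrial rRNA MT-RNR2 took 36.7% and 37.0% of their TPM against 19.9% to 26.3% elsewhere, and their deviations from the group means correlated across genes (r = 0.53). The calls of clock and pathway genes in humanized livers are therefore also given without these livers. Hepatocyte markers summed to between 39210 and 89201 TPM in every humanized liver, and human CLEC4F, VSIG4, MARCO, CD3E, CD3D, NKG7, GZMA and GZMB were listed at 0 in all of them.

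The start-site windows of the mouse clock genes were searched for short sequences that clock proteins are known to bind. Binding was not measured, and sequence outside the windows was not searched. RefSeq windows on GRCm38.p6, from 250 bases before to 50 bases after a start site, were given for 9 of the 10 mouse genes (13 windows), and Per2 had none. The E-box CACGTG, which is its own reverse complement, was found in windows of Cry1 and Per1 (7.15% of all 32851 windows hold it). The variant CACGTT, or AACGTG on the other strand, was found in Cry1, Cry2 and Nr1d1 (4.68% of all windows). The D-box TTATGTAA, or TTACATAA, was found in these windows only in Per3, at 2 places (-205 and -158 from the start) (0.938% of all windows), and AGGTCA, the core sequence of nuclear receptor sites, or TGACCT, was found in windows of Arntl, Clock and Per1 (16.3% of all windows). By window, the E-box lay in 2 of the 13, the variant in 3, the D-box in 1 and AGGTCA in 3. No matches in these windows overlap each other. The windows of 4 genes on which the results below turn are printed 5′ to 3′ on the strand of the gene, with motif letters in capitals. Nr1d1, on the minus strand at chr11:98775328-98775627, is the only gene of the 10 that passed the test in WT livers, and its capitals mark AACGTG. Per3, on the minus strand at chr4:151044616-151044915, carries both D-boxes. Arntl, on the plus strand at chr7:113207261-113207560, carries AGGTCA, the core of the sequence that REV-ERB proteins are known to bind, just after the start site. Dbp, on the plus strand at chr7:45704997-45705296, is the gene that ran most closely opposite to Arntl from mouse to mouse, and none of the 4 motifs was found in its window.
Nr1d1: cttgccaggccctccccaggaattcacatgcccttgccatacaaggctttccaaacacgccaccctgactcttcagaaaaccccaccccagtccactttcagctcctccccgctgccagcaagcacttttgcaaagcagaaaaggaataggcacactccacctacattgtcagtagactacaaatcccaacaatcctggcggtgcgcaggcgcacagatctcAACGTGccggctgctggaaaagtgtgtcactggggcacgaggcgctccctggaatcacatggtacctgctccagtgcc
Per3: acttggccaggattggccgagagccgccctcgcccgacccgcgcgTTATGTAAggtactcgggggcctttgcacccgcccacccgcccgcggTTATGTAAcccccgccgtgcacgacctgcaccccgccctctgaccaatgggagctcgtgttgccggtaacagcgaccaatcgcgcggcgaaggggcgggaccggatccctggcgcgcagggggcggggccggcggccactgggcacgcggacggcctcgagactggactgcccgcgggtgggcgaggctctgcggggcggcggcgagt
Arntl: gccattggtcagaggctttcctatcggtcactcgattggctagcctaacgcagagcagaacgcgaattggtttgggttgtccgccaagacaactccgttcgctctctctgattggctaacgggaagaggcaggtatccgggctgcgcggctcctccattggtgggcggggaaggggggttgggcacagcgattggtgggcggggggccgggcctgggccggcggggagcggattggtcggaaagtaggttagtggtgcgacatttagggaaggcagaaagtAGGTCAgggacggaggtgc
Dbp: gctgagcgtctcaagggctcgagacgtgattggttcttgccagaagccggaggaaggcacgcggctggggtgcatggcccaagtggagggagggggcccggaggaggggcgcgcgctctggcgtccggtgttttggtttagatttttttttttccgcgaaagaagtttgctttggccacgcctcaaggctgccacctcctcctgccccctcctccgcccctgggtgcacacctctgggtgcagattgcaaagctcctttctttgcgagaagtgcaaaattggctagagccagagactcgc

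In WT livers Nr1d1 was higher with knockdown at an unadjusted limma p under 0.05. For the other clock genes tested no difference beyond the spread between mice was detected. Of the 10 genes, 9 had a mean TPM of at least 1 and were tested. Of these, 1 was called at an unadjusted limma p under 0.05, against 16% of all 15090 mouse genes tested. This share of the clock genes was not above that of all genes. After Benjamini-Hochberg adjustment none was called, against 0.888% of all genes, while voom on recovered reads called 1 after adjustment, Nr1d1. The median log2 difference of the 9 was -0.02, beside 0.03 over all genes, and 4 of the 9 were positive. The plot of TPM by liver shows all 10 genes in both sets.

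**Figure D1:**
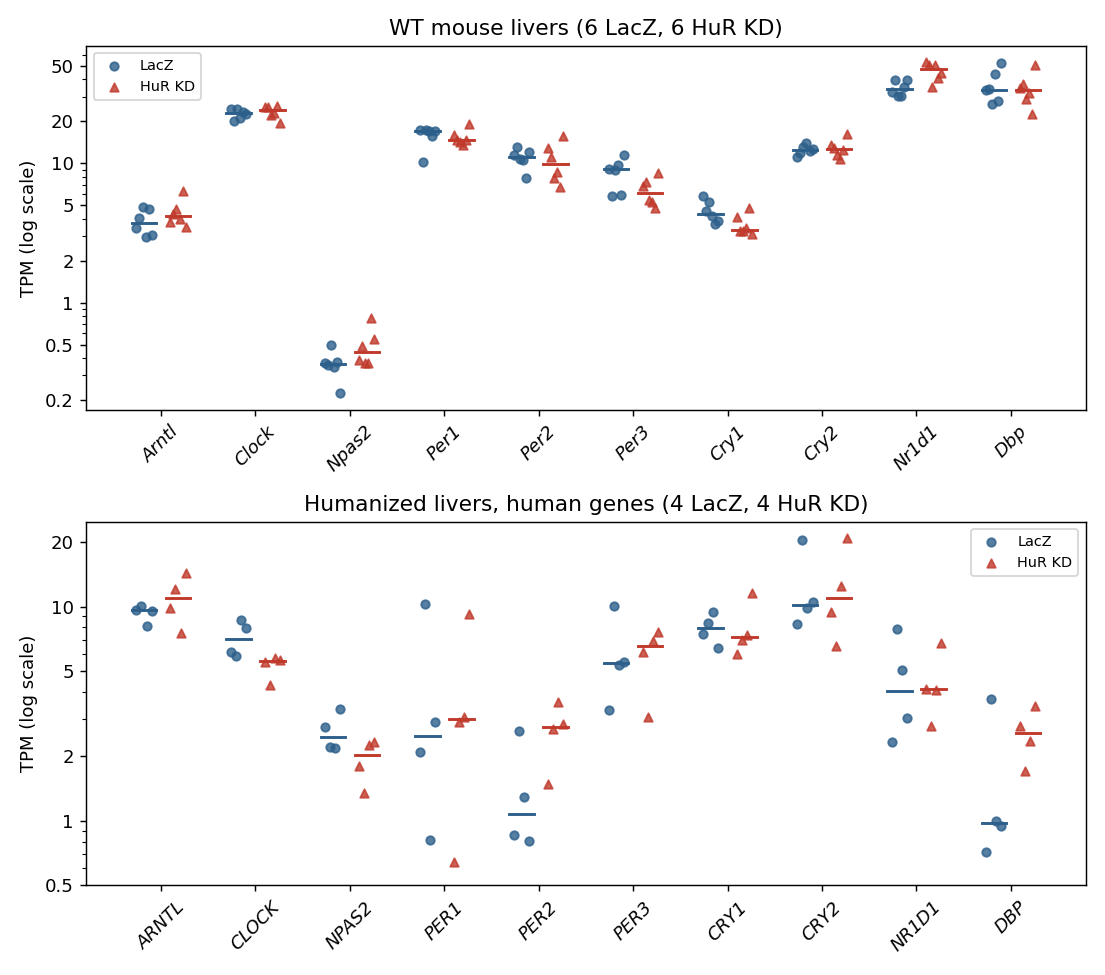
TPM of the 10 clock genes on a log axis in each of the 12 WT livers (top) and 8 humanized livers (bottom), LacZ as circles and HuR KD as triangles, with the group median as a line. Nr1d1 is the mouse gene whose groups separate most, and in humanized livers every HuR KD point of CLOCK lies below every LacZ point. How many of all human genes show no overlap was not counted.

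Nr1d1 encodes REV-ERB alpha, the repressor of Arntl. The gene lies on chromosome 11 of GRCm38, from 98767932 to 98775333 on the minus strand. Its TPM in the 6 WT HuR KD livers were 53.0, 51.2, 35.3, 51.1, 40.9 and 44.2, and in the 6 LacZ livers 32.5, 39.7, 30.5, 30.4, 35.4 and 39.7. Of the 6 knockdown livers 5 exceeded every control, and HuR KD 3 fell inside the control range. Nr1d1 rose by 0.39 ± 0.11 on the log2 scale (SE, limma p = 0.00368, adjusted p = 0.108; exact permutation p = 0.0130). It passed the unadjusted threshold under every alternative fit tried and without any single liver, with log2 differences from 0.35 to 0.47. The end of Nr1d1 overlaps the end of Thra, a thyroid hormone receptor gene on the other strand, over 1075 bases, and the strand setting of the read counting is not given in the sources used here. Thra was 10.8 ± 2.7 TPM in HuR KD and 10.97 ± 1.39 TPM in LacZ livers (SD, n = 6 each), a log2 difference of -0.04 ± 0.13 (SE).

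The activators did not pass the test in WT livers. Arntl, a gene that REV-ERB alpha is known to repress, lies on chromosome 7 from 113207465 to 113314126. It spanned 3.50 to 6.35 TPM with a median of 4.16 in HuR KD livers and 2.95 to 4.88 TPM with a median of 3.74 in LacZ livers. Only HuR KD 5 lay above every control, and the log2 difference was 0.17 ± 0.14 (SE, exact permutation p = 0.273). Clock, the partner of ARNTL, was one of the steadiest members, at 23.6 ± 2.5 TPM in HuR KD and 22.8 ± 1.9 TPM in LacZ livers (SD, n = 6 each), with a log2 difference of 0.05 ± 0.08 (SE). Npas2 was too low to be tested: it ranged from 0.22 to 0.77 TPM, and in WT LacZ 2 its value rests on 1 read.

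Among the repressors of WT livers, Per3 and Cry1 came closest to the threshold. Per3 was 6.83, 7.30, 5.49, 5.32, 4.77 and 8.46 TPM in the HuR KD livers and 9.12, 5.82, 8.99, 9.65, 5.96 and 11.5 TPM in the LacZ livers. 3 knockdown livers lay below every control and none lay above, with a log2 difference of -0.36 ± 0.17 (SE, limma p = 0.0543, exact permutation p = 0.0844). Per3 passed the unadjusted threshold in 7 of 21 alternatives, with log2 differences down to -0.52. Among them were the fits without LacZ 2 (its value there rests on 33 reads), without LacZ 5, without HuR KD 2 and without HuR KD 6. Per3 lies within Camta1 on the same strand, so reads of these genes cannot be told apart by strand. Cry1 spanned 3.09 to 4.79 TPM with a median of 3.34 in HuR KD livers and 3.68 to 5.82 TPM with a median of 4.36 in LacZ livers. Of the 6 knockdown livers 4 lay below every control, and the log2 difference was -0.25 ± 0.12 (SE, limma p = 0.0521, exact permutation p = 0.0628). Cry1 passed in 7 of 20 alternatives, among them median-of-ratios scaling and the fits without HuR KD 1, HuR KD 5, LacZ 5 or LacZ 6.

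For the remaining repressors and for Dbp the WT groups overlapped widely. Per1 was 15.5 ± 2.0 TPM in HuR KD and 15.8 ± 2.8 TPM in LacZ livers (SD, n = 6 each). Per2 was 10.5 ± 3.4 and 10.95 ± 1.78 TPM, and Cry2 was 12.9 ± 1.9 and 12.5 ± 1.0 TPM (SD, n = 6 each). Dbp, which activates D-box genes, was 34.4 ± 9.5 TPM in HuR KD and 36.4 ± 9.8 TPM in LacZ livers (SD, n = 6 each). The log2 differences of these 4 genes lay between -0.10 and 0.04, each smaller than its SE. Dbp overlaps Sphk2 and Cry2 overlaps D930015M05Rik on the opposite strand, with the same limit as for Nr1d1. Numbers of cells and RNA per cell cannot be told apart in any of these whole-liver values.

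**Figure D2:**
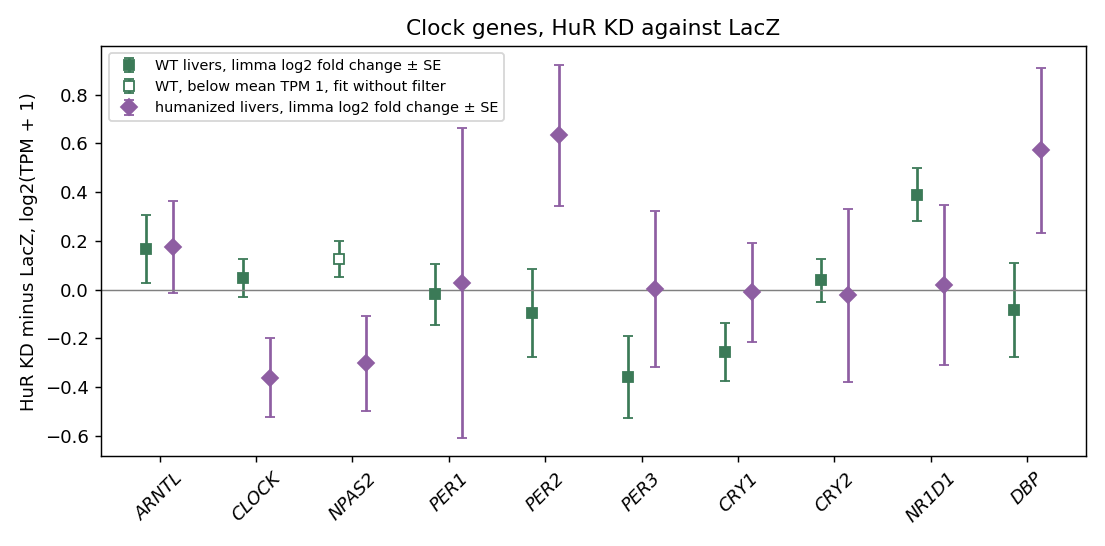
Difference between HuR KD and LacZ livers in log2(TPM + 1) for each clock gene, with the SE from limma, in WT livers (squares) and humanized livers (diamonds). The open square is Npas2, below the filter in WT livers. Nr1d1 in WT livers is at 0.39. In humanized livers CLOCK at -0.36, NPAS2 at -0.30, PER2 at 0.63 and DBP at 0.57 have SE bars that do not overlap those of the mouse genes.

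In humanized livers none of the 10 clock genes passed the test. All 10 were tested, and 0 were called by limma at an unadjusted p under 0.05, against 11.5% of all 12738 human genes tested, and 0 after Benjamini-Hochberg adjustment, against 0.212% of all genes. By voom on recovered reads the count was also 0, and it was 1 to 3 under several other settings. Their median log2 difference was 0.01, beside -0.05 over all genes. Of all human genes called, 31.4% were higher in HuR KD livers, and 49.5% with median-of-ratios scaling.

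CLOCK, PER2 and DBP were nearest the threshold. CLOCK was 5.50, 4.33, 5.77 and 5.64 TPM in the HuR KD livers and 6.11, 5.91, 8.62 and 7.97 TPM in the LacZ livers. All 4 knockdown livers lay below all 4 controls, the closest being HuR KD 3 and LacZ 2. The log2 difference was -0.36 ± 0.16 (SE, limma p = 0.0509), and the exact permutation test gave p = 0.0286, the smallest p this design allows. Any gene whose groups do not overlap gets this p, so it adds nothing to the lack of overlap. The share of all human genes whose groups did not overlap was not counted, so whether CLOCK is unusual in this cannot be said. PER2, a repressor that also answers quickly to glucocorticoid and feeding signals, was 1.49, 2.68, 3.58 and 2.83 TPM in the HuR KD livers and 0.86, 2.62, 1.30 and 0.80 TPM in the LacZ livers. 3 knockdown livers lay above every control, and the log2 difference was 0.63 ± 0.29 (SE, limma p = 0.0568, exact permutation p = 0.0571). The value of LacZ 4 rests on 9 reads. DBP was 2.77, 1.72, 2.36 and 3.45 TPM in the HuR KD livers and 0.71, 3.72, 1.00 and 0.95 TPM in the LacZ livers. Its 4 knockdown livers lay above 3 controls and below LacZ 2, one of the deepest pair, and the log2 difference was 0.57 ± 0.34 (SE, limma p = 0.124, exact permutation p = 0.200).

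These 3 genes changed their side of the threshold with LacZ 2, and CLOCK and PER2 also with the settings of the fit. Without that liver all 3 were called by limma, CLOCK at -0.44, PER2 at 0.85 and DBP at 0.90 on the log2 scale. Without both of the deepest livers these 3 genes were again the ones called, at -0.46, 0.82 and 0.79, and the other 7 were not. CLOCK was also called without LacZ 1 and PER2 without HuR KD 1. With all livers kept, both were called with median-of-ratios scaling, quantile scaling or array weights. CLOCK was called as well without a filter or with the replicate block, and PER2 without trend. A block for the deepest pair called PER2 and DBP but not CLOCK. None of them passed after Benjamini-Hochberg adjustment in any of these fits.

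Several human members were highest in the deepest pair of libraries, 1 from each group. PER1 was 9.26 TPM in HuR KD 4 and 10.3 TPM in LacZ 2, against 0.64 to 3.05 TPM in the other 6 livers, where the value of HuR KD 1 rests on 7 reads. CRY2 was 21.0 and 20.4 TPM in the deep pair against 6.56 to 12.4 TPM in the others. NR1D1 was 6.75 and 7.89 TPM in the pair against 2.35 to 5.04 TPM in the others. PER3 was 7.61 and 10.03 TPM against 3.05 to 6.90 TPM, and DBP was 3.45 and 3.72 TPM against 0.71 to 2.77 TPM. The activators ARNTL, CLOCK and NPAS2, and CRY1 and PER2, showed no such gap: NPAS2 was 2.33 and 2.21 TPM in the pair and 1.36 to 3.33 TPM in the others. The part of sequencing depth, human share of the RNA and MT-RNR2 share in this split was not tested.

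**Figure D3:**
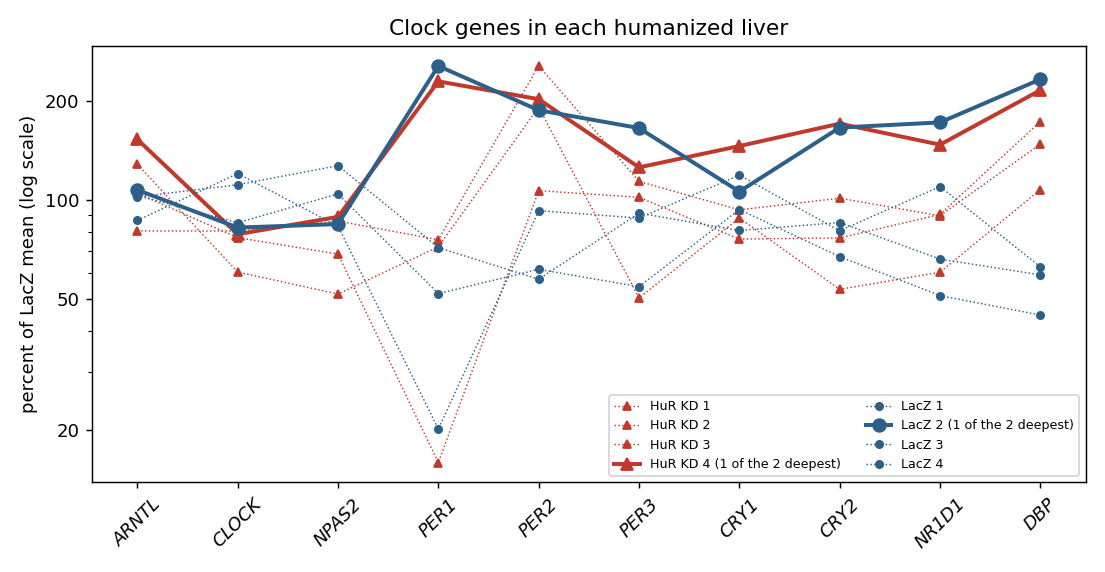
Each humanized liver's TPM as a percent of the mean over the 4 LacZ livers, on a log axis, for the 10 clock genes (lines only join the values of 1 liver). The thick lines are HuR KD 4 and LacZ 2, which lie above the other 6 livers at PER1, PER3, CRY2, NR1D1 and DBP.

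The members not near the threshold did not pass the test, and NPAS2 had the largest difference among them. ARNTL was 10.9 ± 2.9 TPM in HuR KD and 9.35 ± 0.85 TPM in LacZ livers (SD, n = 4 each), a log2 difference of 0.18 ± 0.19 (SE). NPAS2 was 1.94 ± 0.45 and 2.62 ± 0.54 TPM (SD, n = 4 each), a log2 difference of -0.30 ± 0.20 (SE, exact permutation p = 0.171). CRY1 was 8.00 ± 2.45 and 7.92 ± 1.30 TPM (SD, n = 4 each), a log2 difference of -0.01 ± 0.20 (SE). The differences of PER1, PER3, CRY2 and NR1D1 lay between -0.02 and 0.03 on the log2 scale, with SEs from 0.32 to 0.64, so differences of the size seen for mouse Nr1d1 were not detectable. NR1D1 was 4.44 ± 1.67 TPM in HuR KD and 4.58 ± 2.49 TPM in LacZ livers (SD, n = 4 each).

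The effects in the 2 sets were compared as a difference of differences in 1 limma fit over 8202 gene pairs with the same symbol, 9 clock genes among them. CLOCK and PER2 were called at an unadjusted p under 0.05, against 19.7% of all pairs, and 0 of the 9 after Benjamini-Hochberg adjustment, against 5.01% of all pairs. For CLOCK the humanized effect minus the WT effect was -0.41 ± 0.16 on the log2 scale (SE, p = 0.0177, adjusted p = 0.148; exact permutation p = 0.0349), and the call was lost without humanized HuR KD 2 or LacZ 3. For PER2 it was 0.73 ± 0.31 (SE, p = 0.0286, adjusted p = 0.187; exact permutation p = 0.0748), and the call was lost without humanized HuR KD 3, LacZ 1 or LacZ 4 or WT HuR KD 5. The difference for NR1D1 was -0.37 ± 0.30 (SE, exact permutation p = 0.359), so the rise of mouse Nr1d1 was not shown to differ from the human value. For DBP the humanized minus WT difference was 0.65 ± 0.35 (SE, limma p = 0.0772, exact permutation p = 0.150) and was not called. It reached an unadjusted p under 0.05 in 5 of the alternative fits, and ranged from 0.50 to 1.00 over all of them. Npas2 was too low in WT livers for the limma fit. For NPAS2 the humanized minus WT difference was -0.43 on the log2 scale (exact permutation p = 0.0180). It rests on WT values of 0.22 to 0.77 TPM. The difference for ARNTL was 0.01 ± 0.23 (SE), and its 2 effects, 0.18 in humanized and 0.17 in WT livers, were side by side. The shRNA, host strain, species and reads counted per library differ between the sets and cannot be told apart in these comparisons.

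The members differed in abundance within each set. In WT LacZ livers Nr1d1 (median 34.0 TPM) and Dbp (33.8 TPM) were highest and did not differ beyond their spread, each being above the other in 3 of 6 livers. Clock followed at 22.9 TPM, in a range that overlapped neither Dbp nor Per1. Per1 (17.1 TPM), Cry2 (12.4 TPM), Per2 (11.1 TPM) and Per3 (9.06 TPM) formed a descending series whose neighbouring ranges overlapped. Cry1 (4.36 TPM) and Arntl (3.74 TPM) overlapped, and Npas2 (0.36 TPM) was below every other gene in all 6 livers. In WT HuR KD livers Nr1d1 (47.6 TPM) exceeded Dbp (33.4 TPM) in 5 of 6 livers, and Arntl (4.16 TPM) stood above Cry1 (3.34 TPM) in 5 of 6.

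Among the human genes of humanized LacZ livers ARNTL was near the top and DBP and PER2 at the bottom. In these livers CRY2 (median 10.2 TPM) and ARNTL (9.62 TPM) were highest, followed by CRY1 (7.92 TPM), CLOCK (7.04 TPM), PER3 (5.43 TPM) and NR1D1 (4.03 TPM). PER1 (2.49 TPM), NPAS2 (2.47 TPM), PER2 (1.08 TPM) and DBP (0.97 TPM) were lowest, and each gene's range overlapped that of its neighbour. In humanized HuR KD livers ARNTL and CRY2 (10.9 TPM each) were again highest, and NPAS2 (2.03 TPM), DBP (2.57 TPM) and PER2 (2.76 TPM) were lowest. The ratio of ARNTL to DBP within a library does not depend on how a table was scaled. On the log2 scale it was 1.43 to 3.76 in the 4 humanized LacZ livers and -4.09 to -2.46 in the 6 WT LacZ livers, with no overlap. The ratio of ARNTL to NR1D1 was 0.35 to 2.04 in the humanized and -3.70 to -2.64 in the WT LacZ livers. These ratios were chosen after the values were seen and are given side by side, since the tables were made separately and gene lengths differ between species. Knockdown did not move the ARNTL to DBP ratio beyond the spread in either set, with exact permutation p = 0.257 in humanized and p = 0.442 in WT livers.

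From mouse to mouse in WT livers, Dbp varied opposite to Arntl. Arntl was compared with each of the other 9 genes over the 12 livers after the group means were subtracted, and 18 such relations were computed over both sets. For Dbp, Pearson's r was -0.89 (exact permutation p = 0.000440, adjusted p = 0.00792) and Spearman's rho was -0.90 (exact permutation p = 0.000633, adjusted p = 0.0114). The relation was -0.88 within the 6 HuR KD livers and -0.91 within the 6 LacZ livers, and r was -0.83 without the livers farthest from the median of Arntl, HuR KD 5 and LacZ 3. HuR KD 5 had the highest Arntl (6.35 TPM) together with the lowest Dbp (22.6 TPM), Per2 (6.76 TPM) and Per3 (4.77 TPM) of the 12 livers. The livers with the lowest Arntl were LacZ 4 (2.95 TPM), with Dbp at 43.7 TPM, LacZ 6 (3.06 TPM), with Dbp at 52.2 TPM, and LacZ 1 (3.42 TPM), with Dbp at 33.6 TPM.

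Per3 and Per2 followed the same pattern less tightly. For Per3 r was -0.69 (exact permutation p = 0.0221, adjusted p = 0.128) and rho was -0.76 (exact permutation p = 0.0103, adjusted p = 0.0931), with r = -0.84 without the 2 farthest livers. For Per2 r was -0.67 (exact permutation p = 0.0174, adjusted p = 0.128) and rho was -0.61 (exact permutation p = 0.0440, adjusted p = 0.264), with r = -0.61 without them. These relations of Per2 and Per3 lost an unadjusted p under 0.05 without HuR KD 5 or HuR KD 6. For Npas2, an activator like Clock, r was 0.66 (exact permutation p = 0.0285, adjusted p = 0.128), but rho was 0.45 and r fell to 0.11 without the farthest livers, so that relation rests on HuR KD 5 and LacZ 3. The other 5 relations in WT livers, with Clock, Per1, Cry1, Cry2 and Nr1d1, had r between -0.32 and 0.46 and none had a permutation p under 0.05. Nr1d1 itself had r = -0.32 with Arntl.

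In humanized livers none of the 9 relations had a permutation p of Pearson's r under 0.05, though CLOCK (r = -0.73) did without HuR KD 4 and PER1 (r = 0.90) without HuR KD 3. The r values lay between -0.40 for CLOCK and 0.56 for PER1, and for DBP r was 0.24 (exact permutation p = 0.438, rho = 0.10). Without the deepest pair, 6 livers remained and r with DBP was -0.60, with PER3 -0.80, with CRY2 -0.90, with NR1D1 -0.70, with PER2 -0.50, with CRY1 -0.46 and with PER1 0.14. In these livers r with CLOCK was -0.74 and with NPAS2 -0.44. In WT livers these were 0.46 and 0.66 over all 12 livers, but 0.19 and 0.11 without the 2 livers farthest from the median of Arntl. The values without the deepest pair are descriptions chosen after that pair had been seen, and they have no test.

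**Figure D4:**
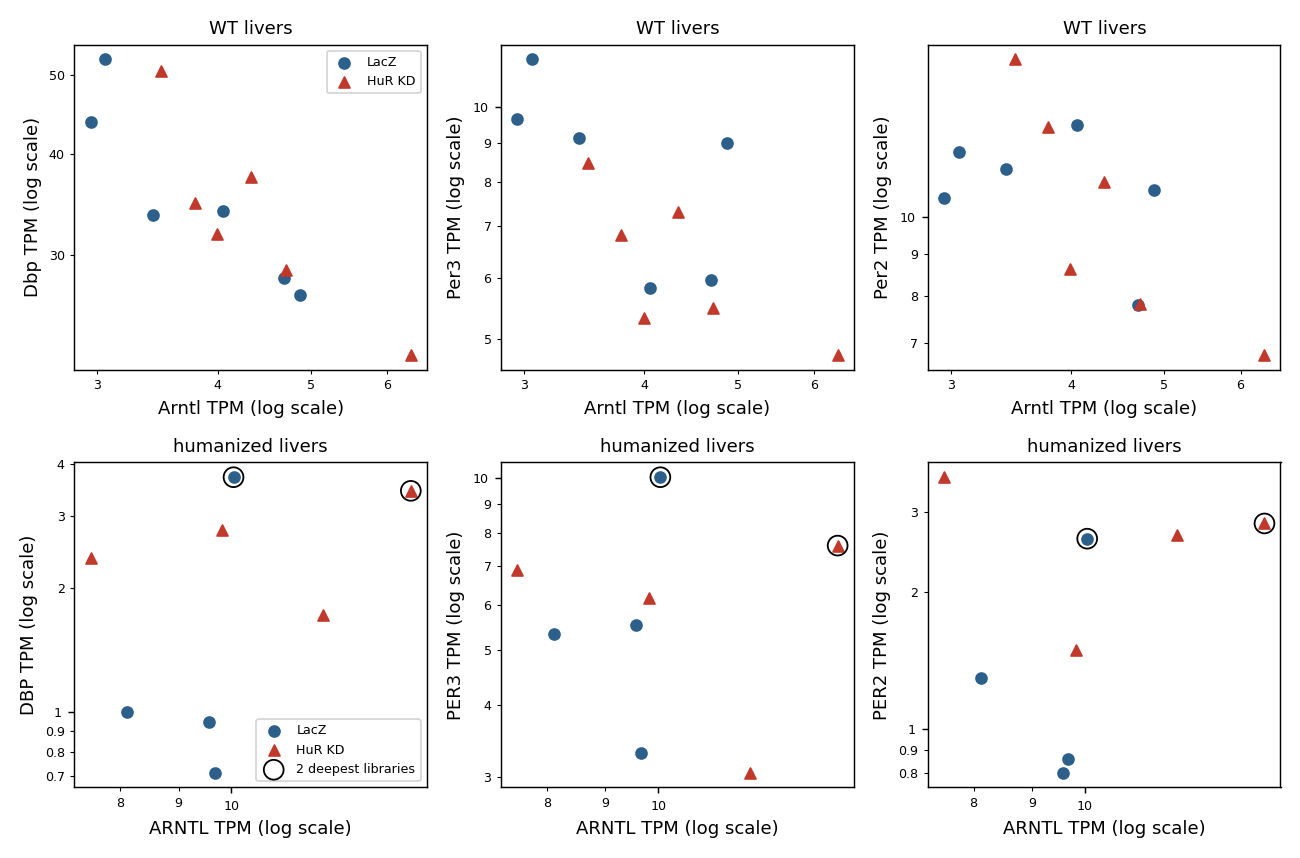
TPM of DBP, PER3 and PER2 against ARNTL in each liver, both axes on a log scale, for the 12 WT livers (top) and the 8 humanized livers (bottom), with LacZ as circles and HuR KD as triangles. The WT livers with Arntl at 3.06 and 6.35 TPM have Dbp at 52.2 and 22.6 TPM, and in humanized livers the 2 deepest libraries (rings) are the highest for DBP and PER3.

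Across all 11326 protein-coding genes of WT livers with a mean TPM of at least 1, Dbp had the lowest r with Arntl (group means subtracted). This is a description over 12 livers, with no test. Next above it were Galnt6 (-0.89), Rasa4 (-0.84), Tef (-0.84) and Slc2a9 (-0.84). Tef encodes a D-box factor of the same family as DBP. The 5 highest were Stap2 (0.85), Mup20 (0.81), Nmral1 (0.81), Lag3 (0.79) and Ccnf (0.78), none of them in the clock lists. Over the 8 humanized livers and 9925 genes, the lowest were GANC, ABCC6, NCDN, CCDC57 and PLOD3 (r from -0.95 to -0.94) and the highest were EIF5A (0.91), AC013394.1 (0.90), MYC (0.87), RASA2 (0.86) and TMEM141 (0.85). No member of the clock lists was among these 10 human genes.

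Around the 10 members, genes of the accessory loops were examined as a list of transcription factors. The D-box activators TEF and HLF, relatives of DBP, had log2 differences of 0.61 ± 0.50 and -0.03 ± 0.38 (SE) in humanized livers and -0.10 ± 0.09 and -0.04 ± 0.11 (SE) in WT livers. NFIL3, which represses through the D-box, had differences of 0.02 ± 0.29 and -0.03 ± 0.23 (SE). NR1D2, the paralog of NR1D1, had differences of 0.03 ± 0.29 and -0.07 ± 0.11 (SE), and CIART, a repressor of the ARNTL and CLOCK pair, -0.40 ± 0.48 and -0.57 ± 0.30 (SE). None of these 5 genes had an unadjusted limma p under 0.05 in either set, while ARNTL2 did in humanized livers. Of the 9 genes of this list tested there, 1 was called lower, ARNTL2, and 1 higher. Of all human genes 11.5% were called in either direction.

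ARNTL2, a paralog of ARNTL, was 2.30, 1.53, 1.42 and 0.89 TPM in the humanized HuR KD livers and 4.64, 1.58, 5.11 and 4.21 TPM in the LacZ livers. 3 knockdown livers lay below every control, and ARNTL2 fell by 0.90 on the log2 scale (SE 0.30, limma adjusted p = 0.290, exact permutation p = 0.0571). It was also called without the deepest pair. Mouse Arntl2 had a mean TPM below 1 and was not tested.

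Among the kinases and ubiquitin ligases that set the stability of PER and CRY proteins, FBXW11 was called in both sets and in opposite directions. It was the 1 gene called of 7 tested in each set, against 11.5% of all human and 16% of all mouse genes. The share of this list called was thus near that of all genes. FBXW11, a subunit that recruits phosphorylated PER to a ubiquitin ligase, was 11.6, 12.5, 12.8 and 12.5 TPM in the humanized HuR KD livers and 24.0, 15.3, 22.1 and 27.2 TPM in the LacZ livers. The groups did not overlap, which by itself sets the permutation p below, and the share of all human genes without overlap was not counted. FBXW11 fell by 0.77 on the log2 scale (SE 0.18, limma adjusted p = 0.124, exact permutation p = 0.0286), and by 0.93 without the deepest pair. In WT livers Fbxw11 ranged from 29.2 to 34.2 TPM with knockdown and from 26.3 to 29.95 TPM without, and it rose by 0.18 ± 0.05 on the log2 scale (SE, limma adjusted p = 0.122, exact permutation p = 0.00433). The difference between the 2 effects was -0.94 ± 0.16 (SE, limma adjusted p = 0.00155). The casein kinases CSNK1A1, CSNK1D and CSNK1E, the kinase GSK3B and the ligase subunit BTRC were not called in either set.

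The 10 clock output genes of the liver held NAMPT, the rate-limiting enzyme of NAD salvage. Nampt was 41.0, 48.7, 39.5, 42.2, 38.1 and 34.9 TPM in the WT HuR KD livers and 71.1, 60.7, 57.5, 59.1, 42.4 and 79.2 TPM in the LacZ livers. Only LacZ 5 fell within the knockdown range, and Nampt fell by 0.57 on the log2 scale (SE 0.13, limma adjusted p = 0.0573, exact permutation p = 0.00433). It was the 1 gene called of the 10 tested in WT livers, against 16% of all mouse genes, and the list's median was -0.16. In humanized livers NAMPT was 4.87, 5.16, 7.29 and 13.4 TPM with knockdown and 10.1, 13.8, 10.8 and 11.7 TPM without. HuR KD 4, one of the deepest pair, lay at the level of the controls, and NAMPT fell by 0.63 on the log2 scale (SE 0.27, limma adjusted p = 0.423, exact permutation p = 0.114), a call that 12 of 19 alternatives lost, and by 0.82 without the deepest pair. The difference between the effects was -0.06 ± 0.28 (SE).

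GYS2 and POR were called as well in humanized livers, where 9 of the 10 were tested and 3 called, against 11.5% of all human genes. GYS2, the liver glycogen synthase, was 7.75 ± 1.94 TPM with knockdown and 4.58 ± 1.22 TPM without (SD, n = 4 each) and rose by 0.65 ± 0.23 on the log2 scale (SE, limma adjusted p = 0.312, exact permutation p = 0.0857), a call lost without HuR KD 4 or LacZ 4 and with the replicate number as a block. POR, which passes electrons to cytochrome P450 enzymes, was 101 to 196 TPM with knockdown and 49.5 to 155 TPM without, and rose by 0.79 ± 0.34 on the log2 scale (SE, limma adjusted p = 0.423, exact permutation p = 0.114), a call that 8 of 19 alternatives lost. Without the deepest pair GYS2 and POR were still called. CYP7A1, PPARA, ALAS1, WEE1, NOCT and KLF10 were not called in either set.

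Of 6 genes that answer to temperature or glucocorticoids, signals that can set the phase of the liver clock, 1 was called in WT livers, a share near the 16% of all mouse genes, and SGK1 had the largest log2 difference in humanized livers, at 0.46 ± 0.41 (SE), without a call. Sgk1, a kinase gene induced by glucocorticoids, was 21.8, 24.8, 25.6, 32.01, 46.5 and 25.1 TPM in the WT HuR KD livers and 18.9, 16.6, 17.3, 17.1, 19.5 and 22.6 TPM in the LacZ livers. Only HuR KD 1 lay below the highest control, and Sgk1 rose by 0.59 ± 0.15 on the log2 scale (SE, limma adjusted p = 0.0914, exact permutation p = 0.00433). Fkbp5, Tsc22d3 and Zbtb16, also glucocorticoid targets, had log2 differences of -0.11, -0.26 and 0.34 and were not called, nor were the cold-responsive Cirbp and Rbm3.

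**Figure D5:**
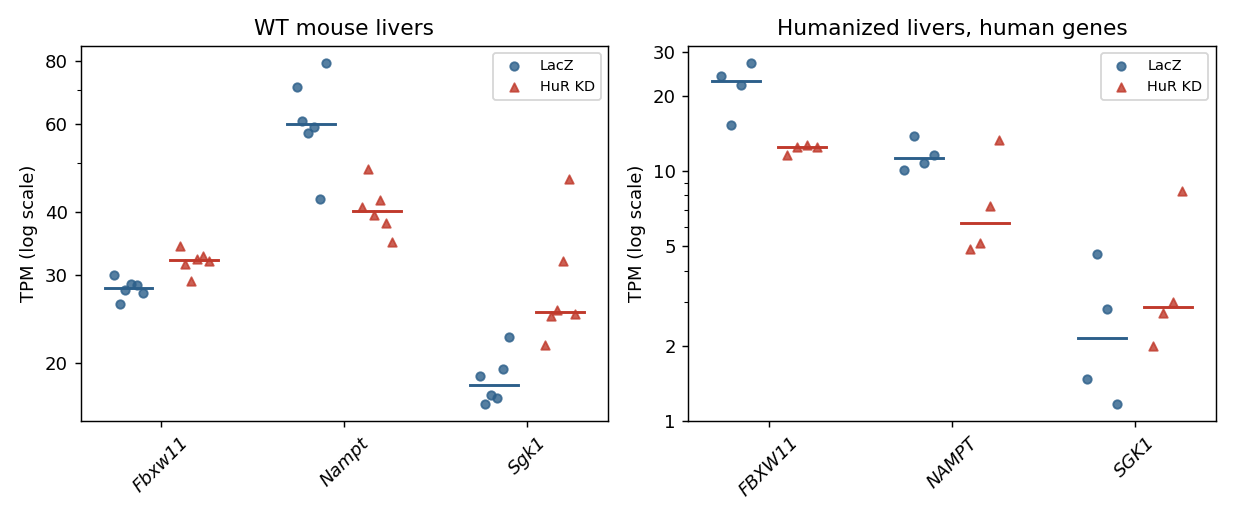
TPM on a log axis of FBXW11, NAMPT and SGK1 in each WT liver (left) and humanized liver (right), LacZ as circles and HuR KD as triangles, with the group median as a line. FBXW11 moves in opposite directions in the 2 sets, and the median of NAMPT is lower with knockdown in both.

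Several markers of Kupffer cells and of T and NK cells were called lower with knockdown in WT livers. Of 6 Kupffer cell markers 4 were called lower with knockdown and none higher, against 16% of all mouse genes called in either direction, and their summed TPM ranged from 258 to 450 in HuR KD and from 368 to 502 in LacZ livers. Of 3 tested T and NK cell markers 2 were called lower, with summed TPM of 3.26 to 10.05 and 6.02 to 17.4. Of 5 endothelial markers only Stab2 was called, higher (0.18 ± 0.08 on the log2 scale, SE), and of 5 stellate markers only Lrat, lower (-0.32 ± 0.14, SE). These shares were near the 16% of all mouse genes, and the median log2 difference of each of these 2 lists was -0.02. Endothelial markers summed to 124 to 155 and 121 to 152 TPM, stellate markers to 82.1 to 120 and 97.5 to 125 TPM, and hepatocyte markers to 66240 to 78277 and 60442 to 76658 TPM, with no limma p under 0.05 among 5 hepatocyte markers. The part of these cells in the values of Nr1d1, Fbxw11, Nampt or Sgk1 was not tested. In humanized livers, cholangiocyte markers summed to 4.71 to 26.8 TPM with knockdown and 10.1 to 34.9 TPM without, stellate markers to 0.76 to 1.68 and 2.53 to 4.67 TPM, and endothelial and Kupffer markers to at most 0.86 and 1.24 TPM in any liver. Of the markers tested, the cholangiocyte gene EPCAM (1 of 3) and the stellate gene RELN (1 of 1) were called lower with knockdown. The share of all human genes called in either direction was 11.5%. RELN was the only stellate marker above the filter, and DES was at 0 in every humanized liver. In the limma fit without a filter LRAT, DCN and COL1A1 had unadjusted p = 0.649, 0.251 and 0.184. A change of human stellate cells therefore cannot be read from this 1 gene. EPCAM and RELN were not refitted without the deepest pair, and their part in the human values was not tested.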

How the data were processed

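Total RNA of 20 livers was sequenced from stranded libraries. The authors trimmed reads (Trim Galore and cutadapt are both named), aligned them with HISAT2 to the mouse genome (mm10) or, for humanized livers, to a combined human (GRCh38) and mouse index, counted them per gene with featureCounts (Subread) and deposited TPM for each liver, human genes alone in the humanized table. The TPM formula and the strand setting of the counting are not given in the sources used here.

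TPM were fitted as log2(TPM + 1) with limma 3.58.1 in R 4.3.3 (lmFit, then eBayes with a mean-variance trend) within each table, for genes whose TPM averaged 1 or more. Calls were made at unadjusted p under 0.05, and p-values were adjusted over all genes tested (Benjamini-Hochberg). Single genes were tested by two-sided exact permutation of group labels over all groupings, and correlations by exact permutation within groups, adjusted over 18. The difference between sets came from a joint limma fit over genes with the same symbol. Python 3.11.15, numpy 2.4.6, pandas 2.3.3, scipy 1.17.1 and matplotlib 3.10.9 were used.

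Reads per gene were recovered as the whole numbers (within 0.03) behind the TPM of each gene above 0 in 4 or more libraries. This worked for 18701 of 18702 human and 25110 of 25110 mouse genes, MT-RNR2 being the exception, so totals exclude it. Depth sets the precision of low TPM. The fits were tested on simulated data with independent noise and shifts larger than any clock gene difference reported here. Recovery of smaller shifts was not tested.

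Groups and replicate numbers came from the labels. Nothing ties single mice to a graft batch or day, and p-values measure the spread between these mice. No 2 libraries of a set agreed within counting error (chi-square per degree of freedom at least 4.42). Named genes are the 10 members, ELAVL1, genes of 4 pathway lists called in a set (at most 4 per list and set) and the 5 genes most and least like ARNTL, and others are named from their lists; some genes of the lists are not reported here. Alternatives were another pseudocount (0.1), no filter, a higher filter (5 TPM on average), median-of-ratios and quantile scaling, no trend, the replicate number as a block, array weights, voom on recovered reads and each liver left out. Fits without, or with a block for, the 2 deepest humanized livers were chosen after seeing the data. The members and lists were chosen with earlier results of these data known. Human sequences and coordinates were not used here.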

Additional observations from a re-analysis of the deposited data

Results flagged for a closer look

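DBP and Per1 each had 1 value that stood far from the rest of their group by Dixon's test, among 44 groups tested for the 10 clock genes and ELAVL1, and chance alone gives about 1 in 20. DBP was 3.72 TPM in humanized LacZ 2, against 0.71 to 1.00 TPM in the other 3 controls. Per1 was 10.2 TPM in WT LacZ 2, the shallowest library, where it rests on 34 reads, against 15.7 to 17.5 TPM in the other 5 controls. The effects of HuR KD in the 2 sets differed by the limma test of the difference for CLOCK, at -0.41 on the log2 scale (humanized minus WT), and for PER2, at 0.73, both at an unadjusted p under 0.05 and neither after adjustment over all pairs (adjusted p = 0.148 and 0.187). These are 2 of 9 clock genes, against 19.7% of all pairs called, a share near that of all genes.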

How the results depend on the processing

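The calls of Nr1d1, Fbxw11, Nampt, Sgk1 and Elavl1 in WT livers, of FBXW11, ARNTL2 and ELAVL1 in humanized livers, and the relation of Arntl and Dbp in WT livers kept their direction and an unadjusted p under 0.05 in each alternative fit run for them and without each liver. A mean TPM of at least 5 left ELAVL1 and ARNTL2 of humanized livers out, and the relation was rerun only with another pseudocount and with each liver left out. Judged by adjusted p, the calls of Nr1d1, Fbxw11, Nampt and Sgk1 in WT livers and of FBXW11, ARNTL2 and ELAVL1 in humanized livers were lost.

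In humanized livers 1461 genes were called, 1098 to 1958 with a liver left out, 931 with a mean TPM of at least 5 and 27 after adjustment. The clock genes called went from 0 to 1 without a filter (CLOCK) or without trend (PER2), to 2 with median-of-ratios or quantile scaling, array weights or a block for the 2 deepest livers, to 3 without these livers, and ranged from 0 to 3 with a liver left out. Deviations of same-numbered HuR KD and LacZ livers correlated at -0.25 to 0.14 (4 humanized pairs) and -0.14 to 0.21 (6 WT pairs), so the numbers were not taken as pairs, and not every liver correlated best with its own number. The replicate block gave 1 (CLOCK) and 1401 genes in all; it gave 2 clock genes (Nr1d1 and Per3) and 2242 genes in WT livers and 2 species differences. In WT livers 2418 genes were called, 1911 to 2856 with a liver left out, 4205 with array weights and 134 after adjustment. The clock genes called were 2 with median-of-ratios or quantile scaling, without trend or by voom, 3 with array weights, 0 after adjustment (1 by voom and 2 with array weights) and 1 to 3 with a liver left out. The clock genes with a species difference were 0 after adjustment, 1 to 3 with a liver left out and at most 3 in the other settings.

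Sign changes touched values with no call. CRY1 and CRY2 in humanized livers became 0.063 and 0.052 with median-of-ratios, 0.058 and 0.040 with quantile scaling and 0.14 and 0.13 by voom, and CRY2 0.063 with array weights. Cry2 in WT livers became -0.044 with array weights. The species difference of ARNTL became -0.016 with a pseudocount of 0.1 and -0.091 without the 2 deepest livers, that of SGK1 0.011 with this pseudocount, and those of CRY2 and NAMPT 0.021 and 0.024 with median-of-ratios. With a liver left out, log2 differences in humanized livers ranged from -0.42 to 0.53 (PER1), -0.21 to 0.25 (PER3), -0.18 to 0.10 (CRY1), -0.30 to 0.23 (CRY2) and -0.19 to 0.28 (NR1D1). Those in WT livers ranged from -0.13 to 0.013 (Per1), -0.21 to 0.0075 (Per2), -0.024 to 0.083 (Cry2) and -0.20 to 0.026 (Dbp), and species differences from -0.12 to 0.16 (ARNTL), -0.34 to 0.20 (CRY2), -0.40 to 0.55 (PER1), -0.34 to 0.10 (NAMPT) and -0.47 to 0.14 (SGK1). Correlations with ARNTL in humanized livers ranged from -0.49 to 0.41 (NPAS2), -0.23 to 0.51 (PER2), -0.40 to 0.21 (PER3), -0.37 to 0.61 (CRY1), -0.31 to 0.58 (CRY2) and -0.24 to 0.35 (NR1D1). The cause of each change was not tested. Low depth limits the human PER1, PER2, NR1D1 and DBP most, with as few as 7, 9, 13 and 10 reads in a liver.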
